A study of Drosophila melanogaster with 4 samples.

Results

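The bithorax complex of Drosophila melanogaster holds the Hox genes Ubx, abd-A and Abd-B, and its dSFMBT regions were taken as every region overlapping a window of 330 kb on chromosome arm 3R that holds these genes. In FlyBase release 5 coordinates, the first of these regions begins at 12479169 and the last ends at 12811147. The window held 51 of the 9756 regions in the list that combines the ChIP replicates, 35 of the 5514 regions of replicate 1 and 34 of the 6004 regions of replicate 2. The data come from chromatin immunoprecipitation and sequencing (ChIP-seq) of dSFMBT by the antibody Q2642, in wild-type Oregon-R-modENCODE larvae at the third instar. The ChIP group had 2 replicates and the input group, from larvae of the same strain and stage, also had 2. No allele or agent was added in either group. The inputs had no region list of their own. Nothing in the labels ties the replicates to separate collections of animals, so an SD below measures only the spread between these 2 libraries and may be technical. The files give no read depth.

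Hox genes encode homeodomain transcription factors that give body segments their identity. Ubx acts in the posterior thorax and the first abdominal segment, abd-A in the anterior and middle abdomen, and Abd-B in the posterior abdomen and genitalia. Polycomb group proteins keep each gene silent in the segments where it was off in the early embryo, and they are recruited to DNA stretches called Polycomb response elements. dSFMBT is the partner of Pho, a protein that binds DNA by sequence, and together they form PhoRC, a complex found at such elements. The regulatory DNA of the complex lies in the same order on the chromosome as the segments it serves. The bxd DNA lies upstream of Ubx, iab-2 to iab-4 serve abd-A, and iab-5 to iab-8 serve Abd-B, with the boundary elements Mcp, Fab-7 and Fab-8 between some of them. The larvae were homogenised without separation by segment, so each value averages cells in which a given Hox gene is on and cells in which it is off. Fewer cells with dSFMBT bound and less binding per cell cannot be told apart in such material.

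Each region carries a single score from the authors, used here as a log2 value. The ratio is 2 raised to that score, and what it is relative to is not stated. A region of the combined list is called shared when it overlaps a region of each replicate list by at least 1 bp, and strong when its combined score is above 1, a ratio above 2. Gene positions come from a table of the release 6 assembly, moved onto release 5 by a constant shift for arm 3R. The positions of bxd, iab-2, Mcp, Fab-7 and Fab-8 are in neither source, so no region was assigned to one of these elements. The table names bxd among the synonyms of Ubx, iab-2 among those of abd-A, and Mcp, Fab-7 and Fab-8 among those of Abd-B.

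dSFMBT formed a string of strong regions across the complex, both inside the 3 genes and between them. Of the 51 regions of the combined list, 33 were shared (64.7%), against 41.4% of the whole combined list. Of these 33, 16 were strong (48.5%), against 11.7% of all 4036 shared regions. Taken alone, replicate 1 had 14 regions with a ratio above 2 among its 35 (8.61% over its whole list) and replicate 2 had 16 among its 34 (12.5% over its whole list). All 14 and all 16 were found in the other replicate. Over the whole lists, 475 regions of replicate 1 and 748 of replicate 2 had a ratio above 2. Of all 4036 shared regions, 451 had such a score in replicate 1 and 717 in replicate 2. These shared regions belong to the combined list, so the counts do not give the share of strong replicate regions that were matched. That share was not counted over the whole lists. Of all regions, strong or not, 79.4% of replicate 1 and 71.1% of replicate 2 were found in the other replicate. The 16 strong regions were 2218 to 4003 bp wide. By their centres, 9 lay between the genes, 5 inside a gene of the complex and 2 at its outer edges. The intervals between the genes are 72.8 and 97.2 kb long, and the genes Ubx, abd-A and Abd-B 77.8, 22.8 and 45.0 kb. The distance between the centres of neighbouring strong regions ranged from 3.92 to 61.2 kb, with a median of 16.8 kb.

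**Figure D1:**
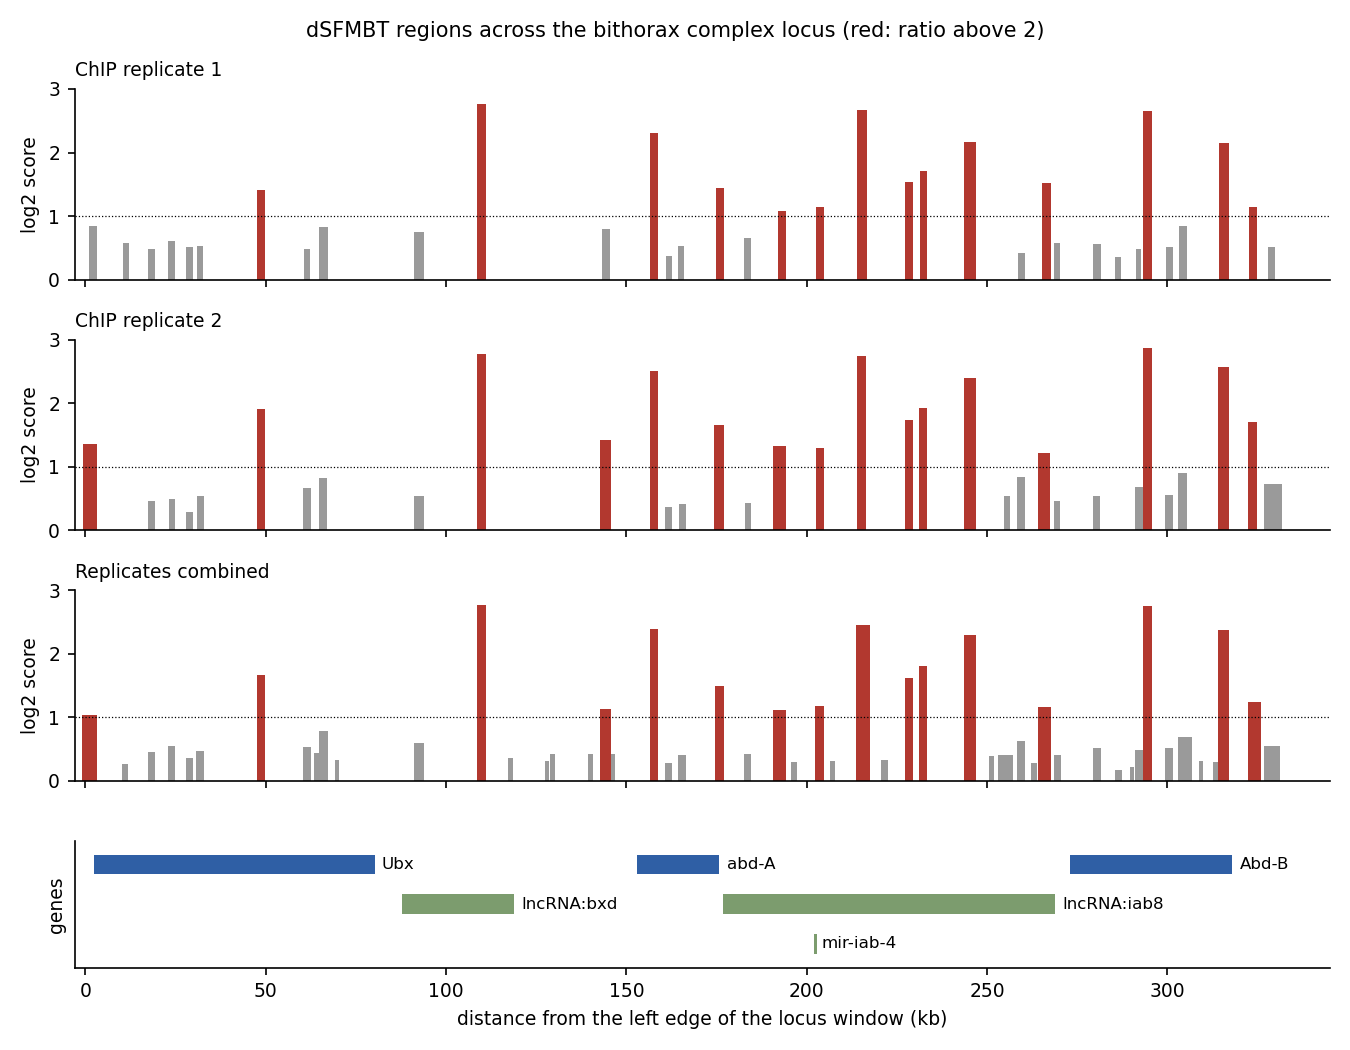
Height is the log2 score of each dSFMBT region and width its length, along the distance in kb from the left edge of the window, for ChIP replicate 1, ChIP replicate 2 and the combined list, with genes below. Red regions have a ratio above 2: 14 in replicate 1, 16 in replicate 2 and 16 in the combined list, and the tallest stand at the same places in all 3.

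The strong regions are described in 3 levels, which were drawn after the scores had been seen. A level ends where the step to the next mean is larger than both SDs of the neighbouring pair. The highest level had 3 regions with replicate scores from 2.66 to 2.86, the next had 3 regions from 2.15 to 2.57, and the last had 10 regions from 0.81 to 1.92. These ranges did not overlap, which follows in part from how the levels were drawn. The step from the highest level to the next was 0.29, which is no larger than the widest spread within that next level, the SD of 0.30 of the region at the start of Abd-B. In the order of their means, 13 of the 15 neighbouring pairs of strong regions differed by less than the larger SD of the pair. Just above the ratio of 2 lay regions with combined scores of 1.04 and 1.11, and just below it regions of 0.78 and 0.69.

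The first of the 3 highest regions lay upstream of Ubx, inside the transcribed stretch of lncRNA:bxd, a noncoding RNA of the bxd DNA. This region, 3R:12588526-12591189, scored 2.77 in replicate 1 and 2.77 in replicate 2, and its centre was 29.7 kb from the start of Ubx. It ranked 2 of 5514 in replicate 1 and 7 of 6004 in replicate 2. The second, 3R:12773302-12775732, lay inside Abd-B, 23.4 kb from the outermost start of the gene. It scored 2.66 in replicate 1 and 2.86 in replicate 2, a mean of 2.76 ± 0.14 (SD, n = 2). The third, 3R:12693758-12697423, lay between abd-A and Abd-B, on the Abd-B side of the microRNA gene mir-iab-4. Its scores were 2.66 and 2.74 in replicates 1 and 2, a mean of 2.70 ± 0.051 (SD, n = 2). These means correspond to ratios of 6.81, 6.78 and 6.50. The combined score of the third, 2.44, was below both of its replicate scores, and its combined region was 3666 bp wide, against 2826 bp in replicate 1 and 2655 bp in replicate 2. A combined score below both replicate scores was common, in 39.4% of the shared regions of the locus and 53.5% of those outside it.

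The next level held a region within each of abd-A and Abd-B and a region between them. The abd-A region, 3R:12636387-12638804, scored 2.32 in replicate 1 and 2.51 in replicate 2, with its centre 18.2 kb inside the gene from its start. The region at the start of Abd-B, 3R:12794024-12797168, scored 2.15 and 2.57 in replicates 1 and 2. The region between the genes, 3R:12723652-12726854, scored 2.17 and 2.40 and lay within lncRNA:iab8, a long noncoding RNA that is transcribed through the iab DNA. All 6 regions of the upper levels had a ratio above 4 in each replicate. By combined score, regions with a ratio above 4 made up 18.2% of the 33 shared regions of the locus, against 0.74% of all 4036 shared regions.

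The 10 remaining strong regions were spread from the left edge of the window to its right edge. Between abd-A and Abd-B, the region 3R:12711239-12713456 had scores of 1.71 in replicate 1 and 1.92 in replicate 2, and its neighbour 3R:12707319-12709542 had 1.53 and 1.74. Their centres were 3.92 kb apart, the shortest distance between strong regions of the locus. Inside Ubx, 3R:12527478-12529851 was the single strong region with its centre in the gene, 31.5 kb from the start, at 1.41 in replicate 1 and 1.91 in replicate 2.

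Between abd-A and Abd-B, the strong regions nearest to abd-A, beyond the one that spans its start, scored lower than that neighbouring pair. The region 3R:12670751-12674193 scored 1.08 in replicate 1 and 1.33 in replicate 2, and 3R:12682389-12684751, beside mir-iab-4, scored 1.15 and 1.30. On the Abd-B side, 3R:12743986-12747579 scored 1.52 in replicate 1 and 1.21 in replicate 2, a difference in the direction opposite to most strong regions. In the stretch between Ubx and abd-A, 3R:12622583-12625610 had 0.81 and 1.42, so it passed a ratio of 2 in replicate 2 and not in replicate 1.

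At the outer edges, strong regions lay at genes that are not Hox genes. On the left, 3R:12479169-12483171 overlapped modSP, which encodes a serine protease of the Toll immune pathway, and the far end of Ubx, and scored 0.85 in replicate 1 and 1.36 in replicate 2. On the right, 3R:12802444-12805948 overlapped Actn3, an alpha-actinin gene, and its neighbour AhcyL2, and scored 1.15 and 1.70.

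The stretches of the complex differed in how many shared and strong regions they held, counted by the centre of each region. The interval between abd-A and Abd-B, 97.2 kb long, had 10 shared regions, 7 of them strong, with combined scores from 0.40 to 2.44 and a median of 1.17. The 77.8 kb of Ubx had 7 shared regions, 1 of them strong, with scores from 0.37 to 1.67 and a median of 0.53. The 72.8 kb between Ubx and abd-A had 3 shared regions, 2 of them strong. Shared regions covered 11.9% of this interval, 20.6% of Ubx, 33.7% of the 22.8 kb of abd-A, 28.8% of the interval between abd-A and Abd-B and 35.2% of the 45.0 kb of Abd-B. The gene abd-A had 4 shared regions with 2 strong, and Abd-B had 6 with 2 strong. One of the 2 strong regions of abd-A spanned its start, with the centre 0.05 kb inside the gene. Regions of a single chromatin sample are not replicates, so these counts were not tested against each other.

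The starts of the 3 Hox genes were not alike. All 3 genes are transcribed towards lower coordinates, so the start is the end with the higher coordinate, and the outermost start was used where a gene has several. At abd-A, the region 3R:12654415-12657028 spanned the start and scored 1.45 in replicate 1 and 1.65 in replicate 2, a mean of 1.55 ± 0.14 (SD, n = 2). At Abd-B, the region at 2.36 ± 0.30 (SD, n = 2) described above ended 0.79 kb from the start in the combined list. At Ubx, none of the 3 lists had a region within 5 kb of the start. The nearest shared region, 3R:12570967-12573962, began 10.8 kb upstream and scored 0.75 in replicate 1 and 0.54 in replicate 2. Because read depth is unknown, a region missing from these lists is below the authors' threshold and not shown to lack dSFMBT.

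The ends of other genes on 3R were read in the same way, from the highest-scoring shared region within 1 kb of either end, because the table gives no direction of transcription. Of the 3398 protein-coding genes of 3R, 6.33% had a strong region there and 41.8% had any shared region. All 3 bithorax complex Hox genes had a strong region at an end, and for Ubx this was the far end, in the region it shares with modSP. Of the 5 Hox genes of the Antennapedia complex, the cluster that acts in the head and anterior thorax, Dfd, a head identity gene, and Antp, a thoracic one, had a strong region. Dfd scored 2.41 in replicate 1 and 2.40 in replicate 2, and Antp scored 1.59 and 1.65. The other members, lab, pb and Scr, had regions with combined scores from 0.73 to 0.87.

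Of the 4 other genes of that complex, bcd, zen, zen2 and ftz, among them early embryonic patterning genes, 0 had a strong region and 2 had a shared one. For zen2 this was the same region as at pb. In the NK cluster of homeobox genes, 2 of 6 genes had a strong region. These were lbe, which acts in muscle and heart precursors, with 2.09 in replicate 1 and 2.22 in replicate 2, and tin, the heart and visceral muscle regulator, with 1.23 and 1.29. All 5 genes used in every cell, for ribosomal proteins and tubulin, also had a shared region at an end, with combined scores from 0.51 to 1.14. One of them was strong, alphaTub84B, at 1.05 in replicate 1 and 1.32 in replicate 2.

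**Figure D2:**
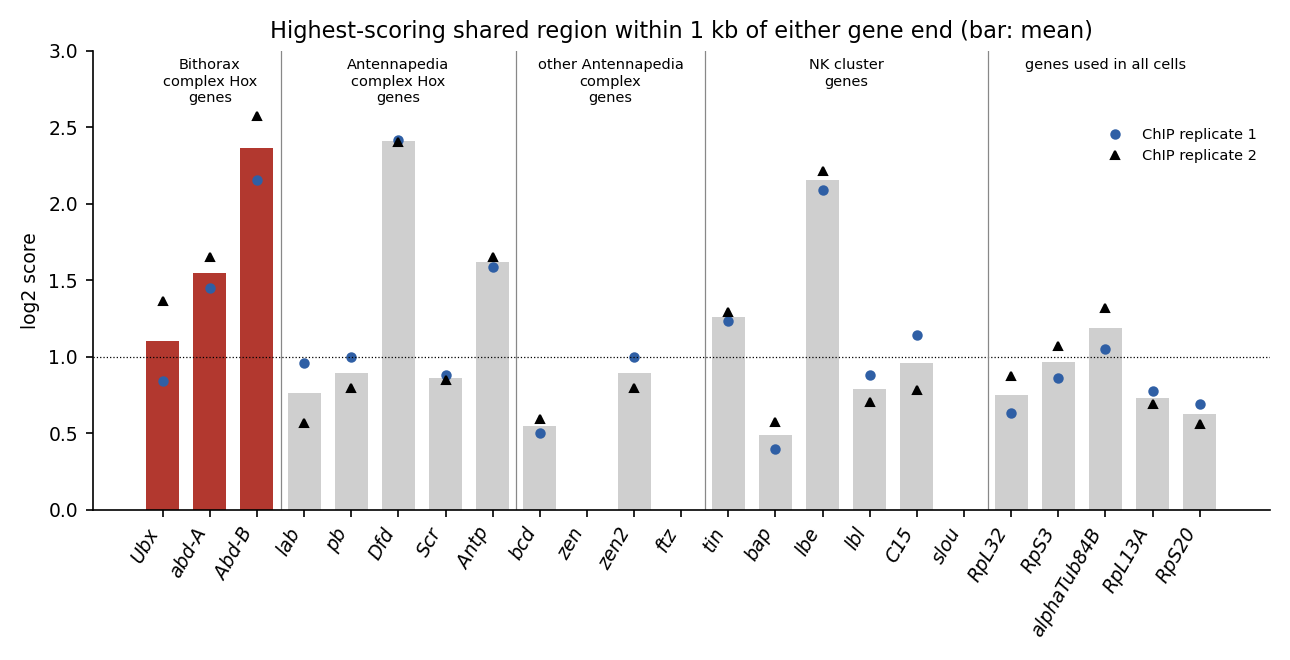
Bars are the mean log2 score of the highest-scoring shared region within 1 kb of either gene end, with replicate 1 as circles and replicate 2 as triangles, for the bithorax complex Hox genes (red) and 4 other gene lists; a missing bar means no shared region. Abd-B stands at 2.36, close to Dfd at 2.41, and all 5 genes used in every cell have a region.

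Set beside other gene clusters of the arm, the locus had more strong regions for its length. It held 10.0 shared and 4.85 strong regions per 100 kb, the 338 kb of the Antennapedia complex held 7.40 and 2.07, the 178 kb of the NK cluster held 7.29 and 1.12, and the rest of 3R held 3.20 and 0.41. The median combined score was 0.78 in the locus, 0.75 in the Antennapedia complex, 0.65 in the NK cluster, and 0.55 in the rest of 3R. The medians thus lay closer together than the upper ends, since the 90th percentile of the scores was 2.39 in the locus, 1.40 in the Antennapedia complex, 1.17 in the NK cluster and 1.12 in the rest of 3R. Shared regions covered 25.8% of the locus and 10.5% of the rest of 3R. The median width of a shared region was 2374 bp in the locus and 2720 bp in the rest of 3R. No test was made of these differences, because a count of regions within 1 set of libraries has no replicate.

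**Figure D3:**
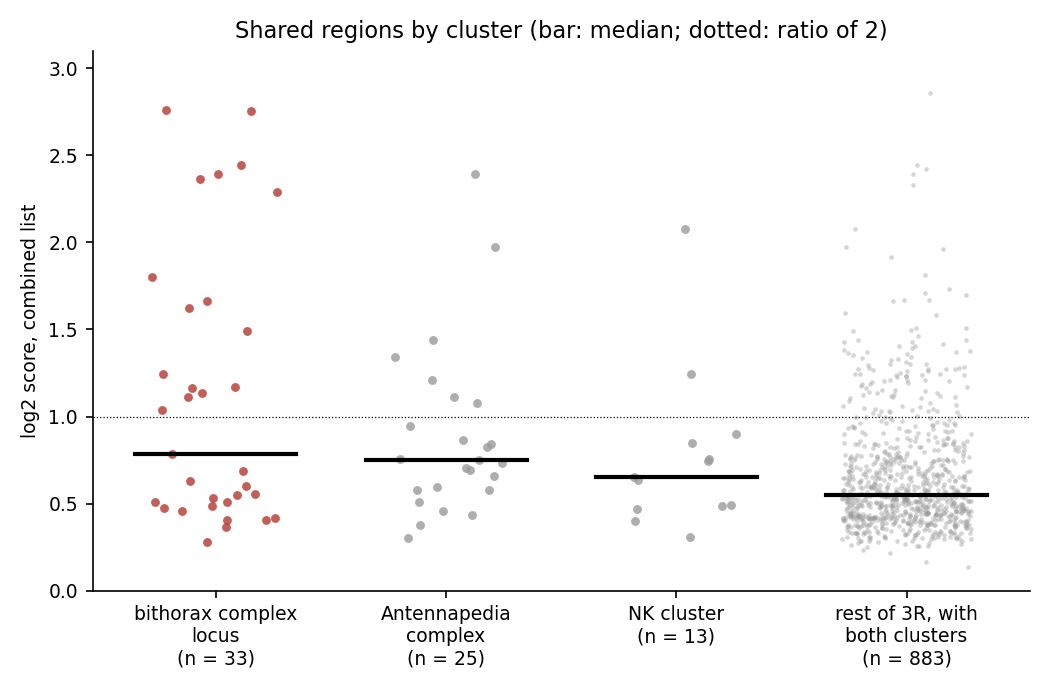
Each point is the combined log2 score of a shared region in the bithorax complex locus (33), the Antennapedia complex (25), the NK cluster (13) and the rest of 3R (883, which includes both other clusters), with the median as a bar and a ratio of 2 as the dotted line. The medians run from 0.78 to 0.55. A score above 2 is held by 6 regions of the locus and by 1 in each of the other clusters. In the rest of 3R, 6 of the 883 have such a score.

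Arm 3R was also divided into 83 windows of the length of the locus, with the division placed on the edges of the locus, which favours it. The locus had 16 strong regions, the window with Dfd, Scr and Antp had 8, and the median window had 1. It had 33 shared regions, the next window had 27, and the median was 9. In covered share it stood close to other windows, with 25.8% against 25.5% and 25.4% in the next windows and a median of 8.36%. The locus had 11 protein-coding genes, against a median of 42. By replicate scores, the locus had 14 strong regions in replicate 1 and 16 in replicate 2, and the window with Dfd, Scr and Antp had 8 and 9.

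**Figure D4:**
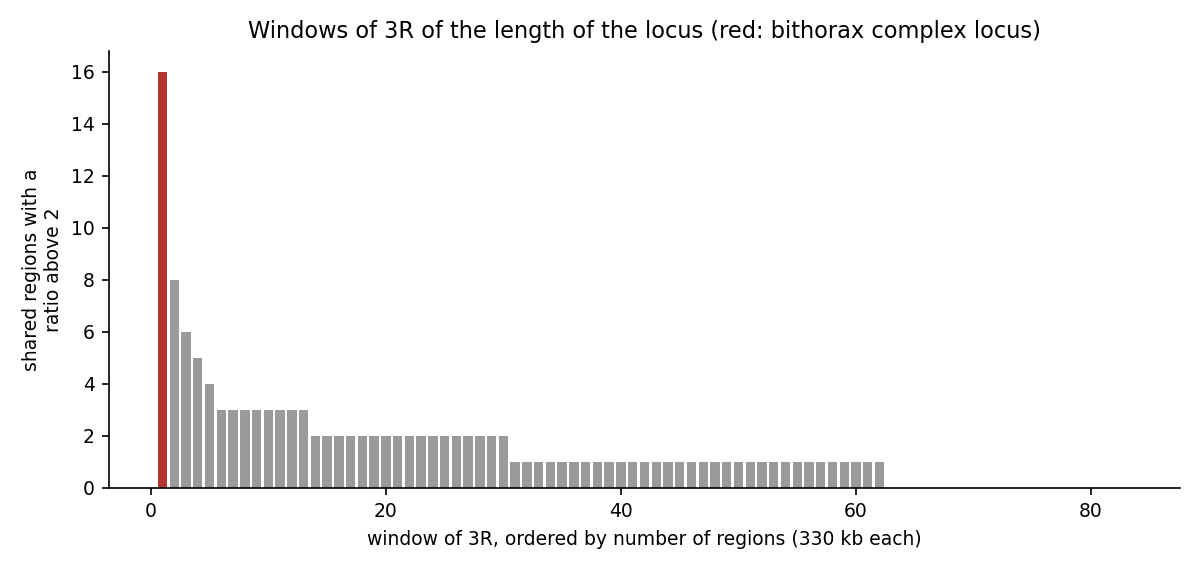
Bars give the number of shared regions with a ratio above 2 in each of 83 windows of 3R, ordered by that number, with the bithorax complex locus in red. The locus has 16, the next window has 8, and 21 windows have none.

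The replicates placed most regions of the locus at nearly the same positions. Each of the 33 shared regions overlapped 1 region in each replicate list. The median distance between the centres of the replicate regions was 77.5 bp, and 20 of the 33 lay within 100 bp. The widest gap, 776.5 bp, belonged to the strong region at modSP. The strong regions that begin at 12743986 and 12670751 had gaps almost as wide, 715 and 710 bp. Of the 35 regions of replicate 1 in the window, 33 were found in replicate 2 (94.3%), against 79.4% of the whole replicate 1 list. In the other direction, 33 of 34 regions were found (97.1%), against 71.1% of the whole replicate 2 list.

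The scores of the strong regions were higher in replicate 2 than in replicate 1 for 14 of 16 regions, with a median difference, replicate 2 minus replicate 1, of 0.21. The same difference was 0.20 for the 455 strong regions outside the locus, where 78.9% were higher in replicate 2. Among the 17 shared regions of the locus that were not strong, 7 were higher in replicate 2 and the median difference was -0.02. Across the 33 regions the scores of the replicates had a Spearman rho of 0.85 and a Pearson r of 0.96, a description over regions of the same libraries. Within the 17 regions that were not strong, whose scores were limited by the threshold, rho was 0.08 and r was 0.39. Over the 4003 shared regions outside the locus, rho was 0.69 and r was 0.80. The higher correlations in the locus do not mean closer scores. The median absolute difference between the replicates was 0.20 in the locus and 0.11 outside it.

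**Figure D5:**
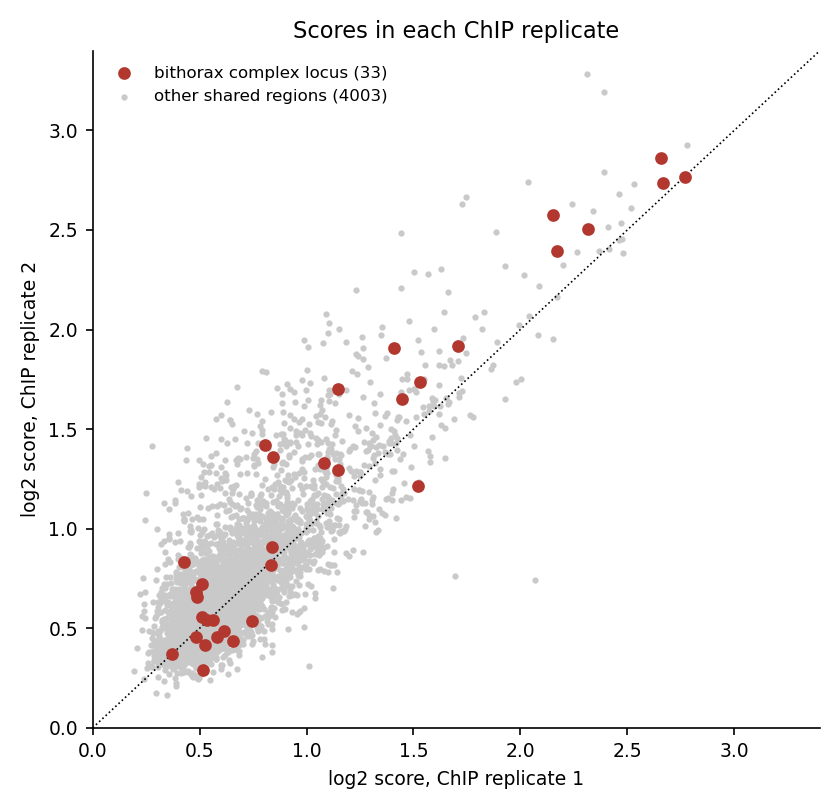
Log2 score in ChIP replicate 1 (x axis) and ChIP replicate 2 (y axis) for the 33 shared regions of the locus (red) and the other 4003 shared regions (grey), with the line of equal scores dotted. Most strong regions of the locus lie above the line, and the region in lncRNA:bxd lies on it, at 2.77 in each.

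The weaker regions lay among the strong ones, though not in every stretch. The 17 shared regions that were not strong had combined scores from 0.28 to 0.78. Of the 18 regions of the combined list that were not shared, 2 had a partner in replicate 1 but not replicate 2, 1 had a partner in replicate 2 but not replicate 1, and 15 had none. The widest region of the window, 3R:12732927-12737263, was the one with a partner in replicate 2 alone, with a combined score of 0.41 and 0.54 in replicate 2 over 1546 bp of its 4337 bp. The 15 had scores from 0.22 to 0.44, and 8 of them were narrower than 1301 bp, the smallest width in either replicate list. None of the 18 was strong, so the locus had 16 strong regions in the whole combined list as well, where 6.21% of all 9756 regions were strong. Between Ubx and abd-A, 31.4 kb held no shared region, from the lncRNA:bxd region to the one that begins at 12622583. It was the longest such stretch of the locus, and the stretch across the start of Ubx, 23.8 kb long, was the next.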

How the data were processed

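Enriched regions were deposited as a list per ChIP replicate and a list for both together. The submitters' processing notes name Bowtie 0.12.7 as the aligner, and per the file headers positions refer to FlyBase release 5. For the region caller, its threshold and the role of the inputs, the sources used here say nothing. The window ran from 12480000 to 12810000 on 3R. The deposited scores were treated as log2 values. Differences between the 12 most frequent scores of a list matched log2 of small whole-number ratios in 16, 44 and 24 of 66 pairs in the combined, replicate 1 and replicate 2 lists, and 0 pairs on other log scales (denominator up to 40, tolerance 1e-07).

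A shared region's replicate score is that of the highest-scoring replicate region it overlaps. Starts and ends of 4226 genes on 3R, from the RefSeq table of the release 6 assembly, had 4174278 subtracted. With this shift 57.4% of the shared 3R regions had their centre within 500 bp of a gene end, against 19.0 to 27.0% with 12 other shifts. The other clusters run between their outermost listed genes.

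No test between groups was possible, with 2 ChIP libraries and no input list, and counts are given beside the same count over all regions or genes. Regions given in full were the strong shared regions, those within 1 kb of a Hox gene start and the widest. The window, gene lists and thresholds were chosen with earlier results of these data known. Overlap and coverage functions were tested on simulated data, in 50 pairs of lists. Alternatives were a stricter overlap, a ratio above 3, either replicate left out, the whole combined list and other distances from a gene end. Software was Python 3.11.15, numpy 2.4.6, pandas 2.3.3 and matplotlib 3.10.9.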

Additional observations from a re-analysis of the deposited data

How the results depend on the processing

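The number of shared regions in the locus, 33, was 32 when each replicate had to cover 50% of the region and 34 to 35 with a replicate left out. It was 32 with regions up to 200 bp apart merged and 31 over the span from Ubx to Abd-B, which were chosen after seeing the data. The 16 strong regions became 9 with a ratio above 3, a stricter limit by construction, were 14 to 16 with a replicate left out, 16 in the whole combined list and 15 over the span from Ubx to Abd-B. The covered share, 25.8%, was 34.4% for the whole combined list, which has more regions, and 22.7 to 24.4% with a replicate left out. The median score, 0.78, was 0.84 by the replicate 1 scores and 0.91 by the replicate 2 scores of the same 33 regions. It was 1.04 over covered bases, where wider regions weigh more. Over all regions of a single replicate list in the window, it was 0.81 in replicate 1 and 0.87 in replicate 2. The cause of these differences was not tested. The scores at the starts of abd-A and Abd-B, 1.55 and 2.36, were 1.45 to 1.65 and 2.15 to 2.57 with a replicate left out, and neither replicate had a region within 500 bp of the Abd-B start. The 215 genes of 3R with a strong region at an end were 195 within 500 bp and 253 within 2 kb. No paired analysis was possible because no result came from a fit of ChIP against inputs, which lack region lists. The planned motif counts in promoters were not run, as no promoter sequences were at hand. Unknown read depth limits what can be said of absent regions.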

Other observations

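Of the 22 genes annotated within the window, 10 overlapped no shared region. They included the sugar transporter gene Glut3, CG31275 and VhaM9.7-d among the 11 protein-coding genes, both microRNA genes at the iab-4 position, mir-iab-4 and mir-iab-8, and 5 of the 8 long noncoding RNA genes, lncRNA:iab4 among them. The long noncoding RNA lncRNA:iab8 overlapped 11 shared regions, 8 of them strong, along its 92.1 kb, and MSAmiP, a protein-coding gene annotated within that length, overlapped 7, of which 6 were strong. These shares follow in part from the length of the genes.

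After the locus and the window with Dfd, Scr and Antp, the 3R windows with the most strong regions were 3R:8189987-8519987 with 6 and 3R:24360036-24690036 with 5, neither of which holds a gene of the lists used here. The window of the NK cluster had 4.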
